A study of Mus musculus with 8 samples.

Results

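Of the transcription factors that set up and maintain dendritic cell (DC) lineages, 10 were examined: Spi1, Zbtb46, Id2, Irf8, Batf3, Nfil3, Irf4, Klf4, Zeb2 and Tbx21. A gene was measured through probe sets that the platform's annotation gives to that gene alone, and where it had several, the brightest of them on average was taken. This gave values for 9 of the 10, among 22180 genes in all. Zeb2 is not reported, because both probe sets annotated to it also carry a second gene. The cells were CD103+ CD11b+ conventional dendritic cells (cDC) sorted from the mesenteric lymph nodes of 8 weeks-old male C57BL6 mice on chow. The transgenic mice carried the hBcl-2 transgene, human BCL2 driven by the CD11c promoter, which is active in CD11c-expressing cells and not only in the sorted ones; they were set against wild type littermates. Each group had 4 arrays, each with RNA of 2 to 3 pooled samples, and the animals behind each pool are not named in the labels, so the spread between pools is what the tests measure.

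Conventional DC fall into cDC1, which are specialised in cross-presenting antigen to CD8 T cells, and cDC2, to which the intestinal CD103+ CD11b+ cells belong. PU.1 (the product of Spi1) is needed for myeloid development in general, ZBTB46 marks committed cDC and their precursors, and ID2 blocks the E proteins that drive plasmacytoid DC. In mice, IRF8, BATF3 and NFIL3 act in cDC1 development, whereas IRF4, KLF4, ZEB2 and T-bet (the product of Tbx21) have been tied to cDC2 or to subsets of it.

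Among these factors Nfil3 rose in transgenic cDC and the other 8 measured factors did not pass the test. Irf8 was lower on every transgenic array than on any wild-type array but missed the threshold over all genes. Spi1 and Id2 differed little between the group means, though Spi1 ranged more widely over the transgenic arrays (0.38) than over the wild-type arrays (0.07). Klf4 and Irf4, both tied to cDC2, were spread widely among the transgenic pools (ranges 1.44 and 0.95). Such spread was not particular to cDC2 factors: the range was 0.78 for Batf3, 0.74 for Zbtb46 and 0.60 for Irf8. Without transgenic replicate 4 the transgenic SD of Irf4 fell from 0.41 to 0.15. The test throughout was limma's moderated test of transgenic minus wild type over all genes with Benjamini-Hochberg adjustment, and passing means an adjusted p below 0.05. By this test 1 of the 9 factors passed, against 1.69% of all genes: 1 was higher, against 0.839% of all genes, and 0 were lower, against 0.848%. Arrays of the 2 genotypes did not overlap for 2 of the 9 factors, against 8.94% of all genes. At an unadjusted p below 0.05, limma put 1 factor higher (6.56% of all genes) and 2 lower (6.6% of all genes).

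The values are log2 probe set intensities, normalised so that the arrays have nearly the same distribution. Transgenic replicate 4 was the least like its group: its correlation with the other transgenic arrays averaged 0.970, where theirs averaged 0.976 to 0.979 and those of wild-type arrays 0.983 to 0.985. Its probe sets also spanned less of the scale (SD 2.00, compared with 2.07 to 2.11 elsewhere). The genes of the sorting markers CD103 and CD11b were dim: Itgae gave 5.17 to 5.86 on transgenic and 5.44 to 5.90 on wild-type arrays, and Itgam 5.38 to 5.72 and 5.38 to 5.76. Itgax, which encodes CD11c, gave 8.80 to 9.42 on transgenic and 8.92 to 9.12 on wild-type arrays. In pooled sorted cells, fewer cells of a type and less RNA per cell cannot be told apart.

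**Figure D1:**
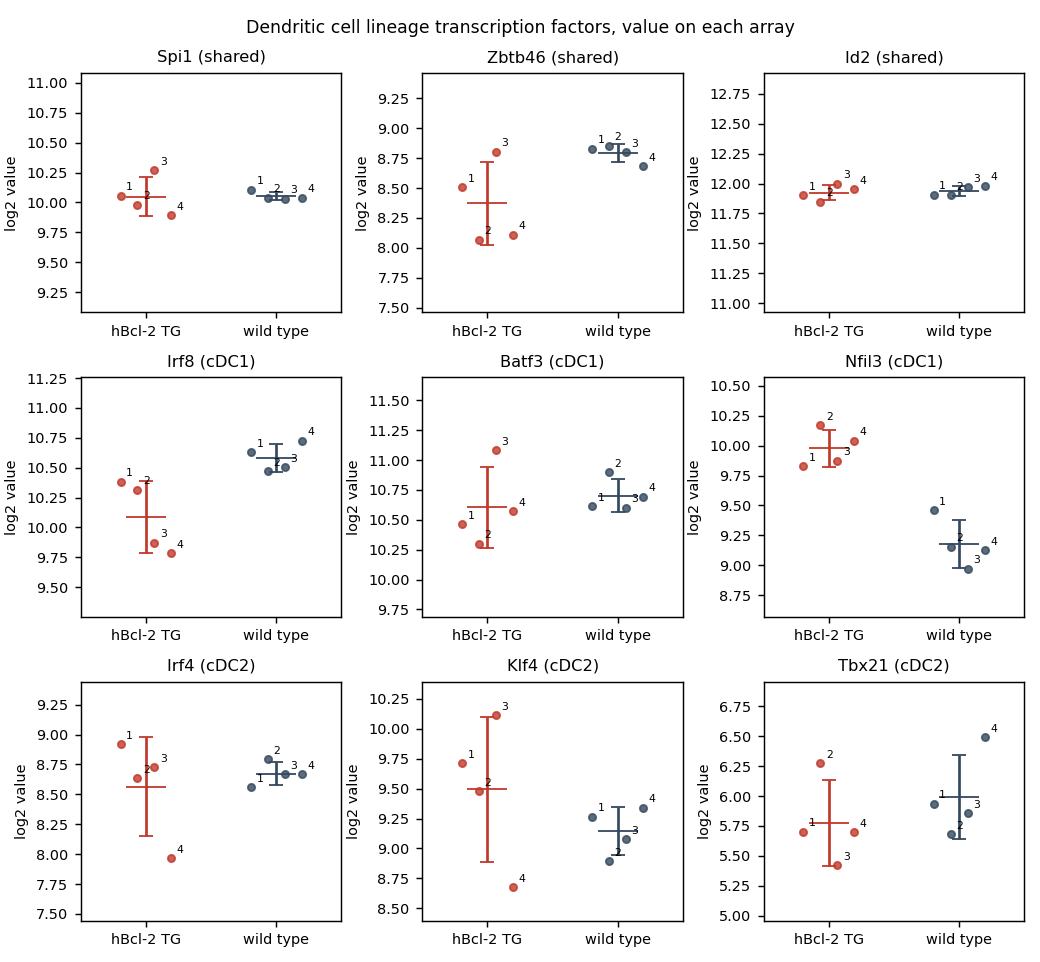
Log2 value (vertical axis, each panel spanning the same 2 log2 units) of the 9 measured factors on the hBcl-2 transgenic (red, left) and wild-type (dark, right) arrays; numbers are replicates, bars are the mean and SD of 4 arrays. The transgenic arrays of Nfil3 lie above all 4 wild-type arrays and those of Irf8 below them, and the groups overlap for the other 7 factors.

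Spi1, whose product PU.1 is an ETS-family activator used throughout the myeloid lineage, gave 10.06, 9.98, 10.27 and 9.89 on transgenic replicates 1 to 4, against 10.11, 10.04, 10.03 and 10.04 on wild-type replicates 1 to 4. The transgenic arrays lay on both sides of the wild-type arrays. The difference was -0.00 (95% interval -0.25 to 0.24; limma adjusted p = 0.992), so the interval reaches no further than a 1.19-fold change either way. Id2, the inhibitor of E proteins, gave 11.90, 11.85, 12.00 and 11.95 on transgenic replicates 1 to 4, against 11.91, 11.90, 11.97 and 11.98 on wild-type replicates 1 to 4. Its groups overlapped too, and the difference of -0.02 had an interval of -0.23 to 0.20, or at most 1.17-fold (limma adjusted p = 0.971). Id2 is bright on this array, where the array can understate differences.

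Zbtb46, the zinc finger factor that marks committed cDC, gave 8.51, 8.07, 8.80 and 8.11 on transgenic replicates 1 to 4, against 8.83, 8.85, 8.80 and 8.68 on wild-type replicates 1 to 4. Transgenic replicate 3 lay within the wild-type range and the other 3 transgenic arrays below it. The difference was -0.42 (SE 0.16, 95% interval -0.78 to -0.06), with an unadjusted p of 0.0270 that did not pass over all genes (limma adjusted p = 0.283). An exact two-sided permutation test over the 70 assignments of the arrays gave p = 0.0857. With 1 transgenic array left out the difference lay between -0.56 (without replicate 3; limma adjusted p = 0.0983) and -0.32 (without replicate 2; adjusted p = 0.490). Without both replicates 2 and 4, the lowest of the group for Zbtb46, it was -0.14.

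Nfil3 encodes a basic leucine zipper repressor, also called E4BP4, that in mouse progenitors favours cDC1 over plasmacytoid DC and is needed for natural killer (NK) and innate lymphoid cells. It gave 9.83, 10.17, 9.87 and 10.04 on transgenic replicates 1 to 4, against 9.46, 9.15, 8.97 and 9.13 on wild-type replicates 1 to 4. Each of the 4 transgenic arrays exceeded the highest wild-type array, as for 4% of all genes. The means were 9.98 ± 0.16 in transgenic and 9.18 ± 0.20 in wild-type cDC (SD, n = 4 each), a 1.74-fold rise (95% interval 1.42 to 2.14; limma adjusted p = 0.0203), and Nfil3 ranked 126 of 22180 genes by p. The exact permutation test gave p = 0.0286, the smallest that 70 assignments allow. Direction and size held with each array left out (log2 difference 0.73 to 0.89), but the call did not: the limma adjusted p was 0.0525 without transgenic replicate 2, and 0.0676, 0.0662 and 0.0599 without wild-type replicates 2, 3 and 4.

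Since Nfil3 is also a factor of NK and innate lymphoid cells, the markers of those cells are given beside it. Of 11 measured markers 2 rose, Klrd1, which encodes the receptor chain CD94 (2.84-fold), and Il18r1, which encodes part of the receptor for interleukin 18 (3.84-fold), and 9 did not pass, against the 0.839% of all genes that rose. The log2 difference was positive for 11 of the 11, with a median of 0.30 against -0.00 over all genes. Their mean level was 7.02 to 7.96 on transgenic arrays and 6.41 to 7.45 on wild-type arrays, and log2 of their summed signal was 12.46 to 12.75 and 12.03 to 12.38. The brightest markers weigh most in that sum. They were Il7r (means 11.76 transgenic and 11.59 wild-type, did not pass) and Klrd1 (10.68 and 9.18). Ncr1, which encodes the NK receptor NKp46, gave 6.75, 8.41, 5.77 and 5.36 on transgenic replicates 1 to 4, against 4.90, 5.91, 6.46 and 8.47 on wild-type replicates 1 to 4. The groups overlapped, with transgenic replicate 2 and wild-type replicate 4 the highest. Eomes, which defines NK cells, stayed between 4.36 and 4.92 on transgenic and between 4.12 and 4.72 on wild-type arrays, at the dim end of the scale. The part of such cells in the rise of Nfil3 was not tested.

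Irf8 encodes the interferon regulatory factor that specifies cDC1 and keeps them in that state; plasmacytoid DC, monocytes and B cells use it as well. Its brighter probe set gave 10.38, 10.32, 9.87 and 9.78 on transgenic replicates 1 to 4, against 10.63, 10.47, 10.51 and 10.73 on wild-type replicates 1 to 4. Every transgenic array lay below every wild-type array, as for 4.94% of all genes, with transgenic replicates 3 and 4 the lowest. The difference was -0.49 (SE 0.15, 95% interval -0.84 to -0.15), or 1.41-fold, with an unadjusted p of 0.00882 that did not pass over all genes (limma adjusted p = 0.161). The exact permutation test gave p = 0.0286, the smallest possible. The dimmer probe set of Irf8 gave 8.68, 8.89, 8.61 and 9.04 on transgenic replicates 1 to 4, against 8.95, 9.14, 9.27 and 8.95 on wild-type replicates 1 to 4. There the groups overlapped through transgenic replicate 4, and the difference was -0.27 (SE 0.13; limma adjusted p = 0.413 with every probe set tested).

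Markers of other cells that use IRF8 are given beside it. Transgenic replicate 2 had the highest mean level of the 10 plasmacytoid DC markers (7.80, against 6.74 to 7.14 on the other transgenic arrays and 6.26 to 6.87 on wild-type arrays) and of the 13 measured cDC1 genes (7.23, against 6.27 to 6.78 and 6.38 to 6.90). This was not particular to those lists. The same array was also the highest for the cDC2 genes (7.29, wild-type arrays 7.02 to 7.13) and the macrophage markers (6.94, wild-type arrays 6.33 to 6.57). It was the highest for the NK, monocyte and B cell markers as well. For the genes shared by cDC, the paralogues of the factors and the T cell markers it was not the highest. Of the plasmacytoid markers, Bst2 and Lair1 rose (log2 differences 0.76, SE 0.13, and 1.14, SE 0.24) and 8 did not pass, against the 0.839% of all genes that rose. The difference was positive for 9 of the 10, with a median of 0.51, and with 1 array left out, Bst2 passed in 3 of 8 fits and Lair1 in 1. The 9 measured B cell markers had mean levels of 5.46 to 5.76 on transgenic and 5.38 to 5.73 on wild-type arrays. In limma 0 passed, against 1.69% of all genes, and 0 also at an unadjusted p below 0.05, against 13.2%. Of these 9, 7 were dim, with a mean below 6, which limits what counts of 0 can show. The 9 measured monocyte markers had mean levels of 4.76 to 5.61 and 4.64 to 4.96, and 0 passed in limma, against 1.69% of all genes. At an unadjusted p below 0.05, 3 did (Ly6c2, Cd14 and Ms4a4c), against 13.2% of all genes. All 3 were higher on average in transgenic cDC (log2 differences 1.81, SE 0.77, 0.74, SE 0.26, and 0.34, SE 0.15). The difference was positive for 6 of the 9 and negative for 3, with a median of 0.28. Of the 9, 6 were dim, with a mean below 6 over the 8 arrays.

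The bases upstream of Nfil3 and Irf8, the 2 factors whose groups did not overlap, are shown because regulators of a gene commonly bind close to its start; RefSeq windows (build GRCm38.p6) matched 9 of the 10 genes, all but Spi1. Each line gives the 250 bases before the annotated start, 5′ to 3′ on the gene's strand, with capitals for matches to a searched motif. The Nfil3 window is chr13:52981040-52981289 on the minus strand and the Irf8 window, the one farther upstream of the gene's 2 annotated starts, is chr8:120736108-120736357 on the plus strand.
Nfil3: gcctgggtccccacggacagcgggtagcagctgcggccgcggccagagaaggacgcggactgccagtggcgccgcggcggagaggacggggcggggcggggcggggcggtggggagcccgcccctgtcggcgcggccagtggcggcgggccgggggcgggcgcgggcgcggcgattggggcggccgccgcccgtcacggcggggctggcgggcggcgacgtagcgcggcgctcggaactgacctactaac
Irf8: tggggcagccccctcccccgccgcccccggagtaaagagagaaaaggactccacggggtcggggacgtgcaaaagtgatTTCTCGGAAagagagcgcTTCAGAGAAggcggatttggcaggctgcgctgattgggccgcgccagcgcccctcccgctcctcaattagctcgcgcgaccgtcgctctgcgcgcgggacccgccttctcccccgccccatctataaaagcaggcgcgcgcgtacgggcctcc
Searched on both strands were 8 motifs: GGAANNGAAA (PU.1 with IRF4 or IRF8), GAAANNGAAA (IRF dimers), TGANTCA (AP-1, where BATF3 pairs with JUN), TTANGTAA (NFIL3), CCNCACCC (KLF), CAGGTG (ZEB and E proteins), TCACACCT (T-box) and TTCNNNGAA (GAS, the element of STAT factors). The Irf8 window holds 2 GAS matches, TTCTCGGAA and TTCAGAGAA, whose first bases lie 171 and 153 bases before the start and which share no base with each other or with another match. Of 32851 such windows over the mouse annotation, 7.02% hold a GAS match, as do 2 of the 9 factor windows, those of Irf8 and Batf3. The Nfil3 window holds no match to the 8 motifs, and neither do those of Id2, Irf4 and Klf4. It is 81.6% G and C and contains 43 CpG pairs. The medians are 52.4% and 6 over all windows and 63.6% and 18 over the 9 factor windows. The window of Zbtb46 (51.6% G and C, 0 CpG pairs) is among the 9 but may not be a promoter, as its last bases read like the end of an intron. A match is only a description of the letters and not evidence of a bound site.

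**Figure D2:**
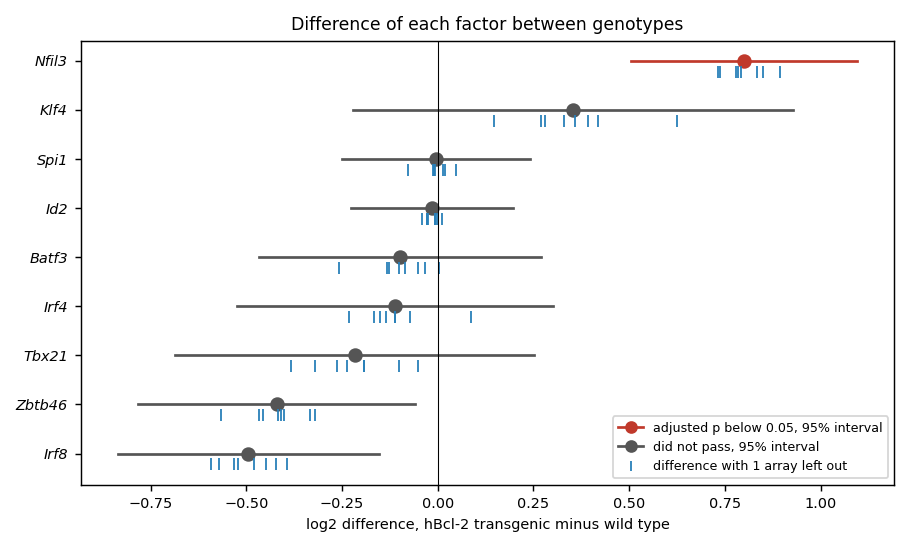
Log2 difference between transgenic and wild-type arrays (horizontal axis) of each measured factor, with its 95% interval from limma (n = 4 arrays each) and, as blue ticks, the differences with 1 array left out. Nfil3 is the only factor past the threshold; the intervals of Irf8 and Zbtb46 lie below 0 without adjustment.

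Batf3, the AP-1 family factor that works with IRF8 in cDC1, gave 10.46, 10.30, 11.08 and 10.57 on transgenic replicates 1 to 4, against 10.62, 10.90, 10.60 and 10.69 on wild-type replicates 1 to 4. Transgenic replicate 3 lay above all wild-type arrays and the other 3 below them. The difference was -0.10 (95% interval -0.47 to 0.27; limma adjusted p = 0.880). Within the transgenic group Batf3 did not order the arrays as the cDC1 genes did: replicate 3, with the highest Batf3, had the lowest mean cDC1 level (6.27), and replicate 2, with the lowest Batf3, had the highest (7.23). Xcr1, which encodes the chemokine receptor that defines cDC1, gave 6.27, 6.91, 5.43 and 5.03 on transgenic replicates 1 to 4, against 5.82, 6.23, 6.36 and 5.79 on wild-type replicates 1 to 4. Of the 13 measured cDC1 genes 0 passed in limma, against 1.69% of all genes, and 3 did at an unadjusted p below 0.05, against 13.2%. Their median log2 difference was -0.05, against -0.00 over all genes, and 8 of the 13 were dim, with a mean below 6 over the 8 arrays.

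Among the factors tied to cDC2, Irf4, needed for cDC2 to mature and to migrate to lymph nodes, gave 8.92, 8.63, 8.73 and 7.97 on transgenic replicates 1 to 4, against 8.56, 8.79, 8.67 and 8.67 on wild-type replicates 1 to 4. Transgenic replicate 4 was the lowest of the 8 arrays and transgenic replicate 1 the highest. The difference was -0.11 (95% interval -0.52 to 0.30; limma adjusted p = 0.876) and was 0.09 without transgenic replicate 4 (adjusted p = 0.789), so its direction rests on that array. Klf4, a Krüppel-like factor needed by part of the cDC2, gave 9.71, 9.48, 10.11 and 8.68 on transgenic replicates 1 to 4, against 9.26, 8.89, 9.08 and 9.34 on wild-type replicates 1 to 4. Here transgenic replicates 1 to 3 exceeded the whole wild-type group and transgenic replicate 4 lay below all of it. The difference was 0.35 (SE 0.26, 95% interval -0.22 to 0.93; limma adjusted p = 0.644). It was 0.63 without transgenic replicate 4 (adjusted p = 0.113) and 0.15 without transgenic replicate 3 (adjusted p = 0.862), and neither passed.

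Tbx21, which encodes T-bet, a factor of a cDC2 subset and also of NK and type 1 T helper cells, was the dimmest of the factors on the array. It gave 5.70, 6.27, 5.42 and 5.70 on transgenic replicates 1 to 4, against 5.94, 5.68, 5.86 and 6.49 on wild-type replicates 1 to 4. The difference was -0.22 (95% interval -0.69 to 0.25; limma adjusted p = 0.746), and -0.05 without wild-type replicate 4. The 2 arrays with the highest Tbx21, wild-type replicate 4 and transgenic replicate 2, were also the 2 highest for 5 of the 11 measured NK and innate lymphoid markers (Ncr1, Gzma, Nkg7, Klrb1c and Gata3). For the other 6 (Prf1, Klrk1, Klrd1, Il18r1, Il7r and Eomes) at least 1 of the 2 highest arrays was a different one. How often these 2 arrays are the highest over all genes was not counted, so the match is not shown to be particular to NK markers. The part of NK cell RNA in the level of Tbx21 was not tested. Cd3e, which defines T cells, gave 5.04 to 5.82 on transgenic and 5.62 to 5.80 on wild-type arrays. In limma 0 of 8 measured T cell markers passed, against 1.69% of all genes. At an unadjusted p below 0.05 it was also 0, against 13.2% of all genes. All 8 were dim, with a mean below 6 over the 8 arrays, which limits what these counts of 0 can show.

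**Figure D3:**
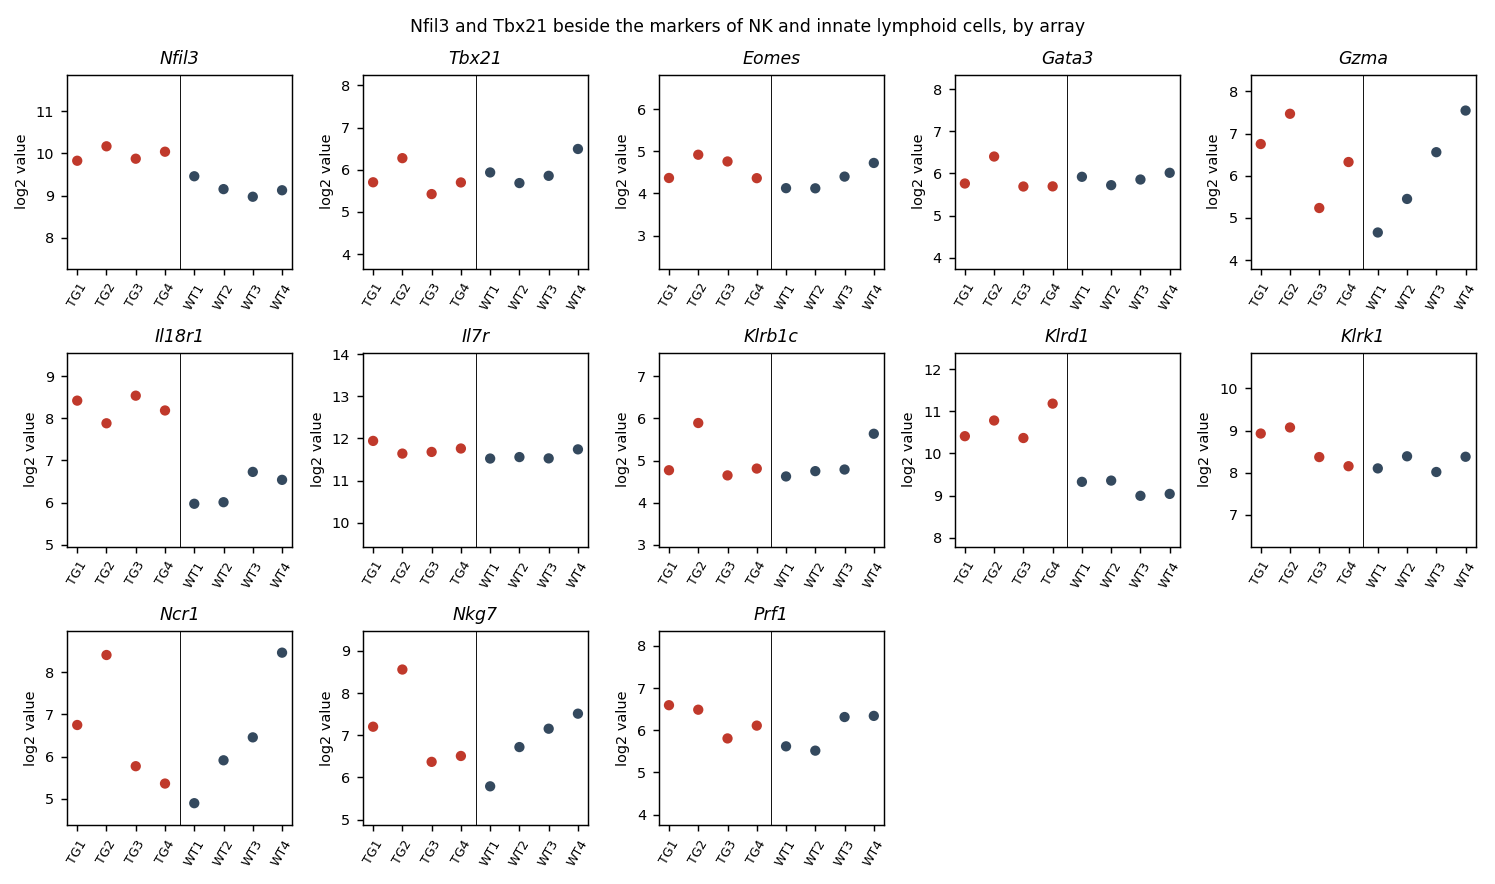
Log2 value (vertical axis, each panel spanning the same range) of Nfil3, Tbx21 and the 11 measured markers of NK and innate lymphoid cells on each array, transgenic (TG, red) left of wild type (WT, dark). TG2 and WT4 are the 2 highest arrays for Tbx21 and 5 of the markers, and the genotypes do not overlap for Nfil3, Klrd1 and Il18r1.

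Most of the factors varied more among the transgenic pools than among the wild-type pools. The SD over 4 arrays was larger in transgenic cDC for 8 of the 9 factors, all but Nfil3, against 62.1% of all genes. Without transgenic replicate 4 it was still larger for 8 of the 9, against 47.9% of all genes. These shares are descriptions with no test, and they compare unlike levels. A mean below 6 was found for 13620 of the 22180 genes but for 1 of the 9 factors. The larger transgenic SD over 4 arrays was not particular to the factors. It was seen for all other measured regulators of DC development but Ikzf3, Mycl and Bcl11a. Of the measured genes shared by cDC, it was seen for all but Dpp4. For Spi1 the SD was 0.16 over transgenic and 0.04 over wild-type arrays, for Zbtb46 0.35 and 0.08, for Irf4 0.41 and 0.10, and for Klf4 0.61 and 0.20. For Tbx21 it was nearly equal (0.36 and 0.35), and for Id2 it was small in both groups (0.07 and 0.04). Without transgenic replicate 4 the transgenic SD of Irf4 was 0.15 and that of Klf4 0.32, while those of Zbtb46 and Batf3 were 0.37 and 0.41. Within the transgenic group, replicate 4 was the lowest array for 4 of the 9 factors (Spi1, Irf8, Irf4 and Klf4) and replicate 3 the highest for 5 (Spi1, Zbtb46, Id2, Batf3 and Klf4). The shares over all genes were not taken, so these counts describe the arrays and are not shown to be a trait of the factors. Replicate 4 was also the lowest transgenic array for Spib, Stat5a, Bcl6, Flt3 and Fscn1, but not for Tcf4 or Cebpb.

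**Figure D4:**
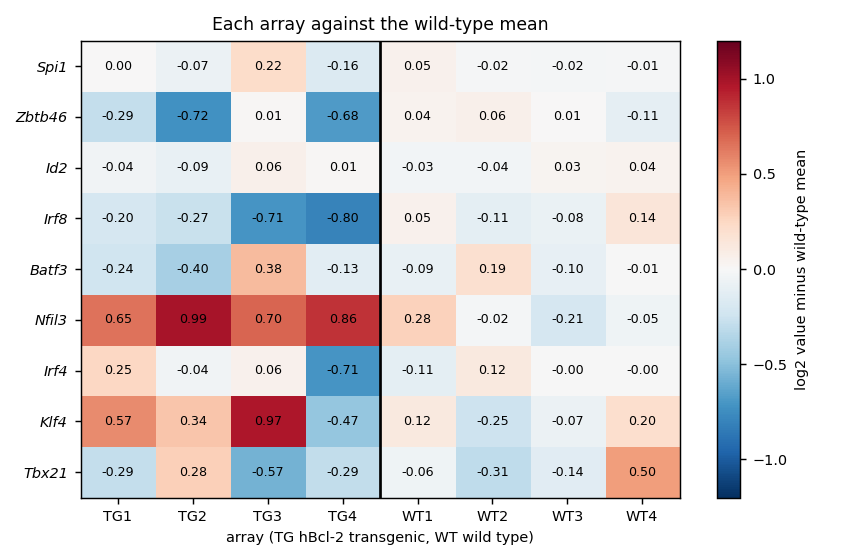
Log2 value on each array minus the mean of the 4 wild-type arrays, for each measured factor (rows) on transgenic (TG, left) and wild-type (WT, right) arrays; red is above and blue below the wild-type mean. Nfil3 is above it on all 4 transgenic arrays, Irf8 is below it on all 4, and Irf4 and Klf4 are low on TG4.

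Over the 8 arrays and the 8559 other genes with a mean of at least 6, the 3 genes most like Nfil3 were Xrcc1, Matr3 and Diablo (Pearson's r 0.991, 0.974 and 0.965). Those most like Irf8 were Lrp5, Sting1 and Alcam (r 0.980, 0.980 and 0.975), and those most like Zbtb46 were Cd44, Bcl10 and Zw10 (r 0.991, 0.991 and 0.985). With 8 arrays in 2 groups and so many genes, values this high describe these arrays only.

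Of 23 measured paralogues of the factors, 0 rose (0.839% of all genes rose), 2 fell (0.848% of all genes fell) and 21 did not pass, with a median log2 difference of -0.15. Limma's unadjusted p was below 0.05 for 7 of the 23, against 13.2% of all genes. Irf1, an interferon regulatory factor that interferons induce, gave 9.32, 8.96, 9.44 and 8.99 on transgenic replicates 1 to 4, against 9.85, 9.79, 9.96 and 9.84 on wild-type replicates 1 to 4. Its log2 value fell by 0.68 (SE 0.13; adjusted p = 0.0330 in limma), with no overlap between the groups. Klf7, a Krüppel-like factor, gave 6.46, 6.00, 6.32 and 6.24 on transgenic replicates 1 to 4, against 7.65, 6.76, 7.19 and 7.69 on wild-type replicates 1 to 4, and its log2 value fell by 1.06 (SE 0.20; adjusted p = 0.0326 in limma). Both calls were fragile: with 1 array left out, each passed in 1 of 8 fits. Spib, an ETS factor close to Spi1 that plasmacytoid DC use, was at -0.64 (SE 0.16; limma adjusted p = 0.0791), with transgenic values of 9.38 to 10.07 and wild-type values of 10.37 to 10.66. Id3, the relative of Id2, was at 0.64 (SE 0.16; limma adjusted p = 0.0760), and Tef, which binds the sites that NFIL3 represses, was at 0.43 (SE 0.16; limma adjusted p = 0.241).

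Among 31 other measured regulators of DC development, 1 rose (0.839% of all genes did), 0 fell (0.848%) and 30 did not pass, with a median of -0.12. At an unadjusted p below 0.05, limma put 7 of the 31 past the threshold, against 13.2% of all genes. Bcl11a, which encodes a zinc finger factor needed for plasmacytoid DC development, gave 8.28, 7.92, 8.14 and 7.86 on transgenic replicates 1 to 4, against 6.93, 7.59, 7.14 and 7.32 on wild-type replicates 1 to 4. Its log2 value rose by 0.80 (SE 0.16; adjusted p = 0.0360 in limma), with no overlap, and passed in 2 of 8 fits with 1 array left out. Tcf4, which encodes E2-2, the E protein that directs plasmacytoid DC, was at -0.21 (SE 0.18) and did not pass. Stat5a, which carries cytokine signals, was at -0.70 (SE 0.18; limma adjusted p = 0.0869) and Cebpb, a myeloid leucine zipper factor, at 0.76 (SE 0.24; limma adjusted p = 0.169). Of the 8 measured AP-1 partners of BATF factors 0 passed in limma, against 1.69% of all genes. At an unadjusted p below 0.05, 2 did, against 13.2% of all genes. Atf3 and Fosb had their largest differences, 0.64 (SE 0.18) and 0.54 (SE 0.18).

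In the 3 lists that follow, counts stand against the 0.839% of all genes that rose and the 0.848% that fell. Of 15 cDC2 genes, the co-receptor gene Cd4 rose (log2 difference 1.18, SE 0.13), Tnfsf9 (4-1BB ligand, -1.87, SE 0.16) and Esam fell and 12 did not pass, with a median of 0.14. Limma's unadjusted p was below 0.05 for 5 of the 15, against 13.2% of all genes. Esam, an adhesion molecule of Notch-dependent cDC2, gave 6.64 to 6.92 on transgenic and 7.19 to 7.51 on wild-type arrays, and its log2 value fell by 0.62 (SE 0.12; adjusted p = 0.0320 in limma), a call that held in 2 of 8 fits with 1 array left out. Of 11 genes shared by cDC, Kit, the stem cell factor receptor, rose (log2 difference 0.92, SE 0.13). Fscn1, an actin-bundling protein of mature cDC, fell (-0.69, SE 0.12) and 9 did not pass. The median was -0.23, with 8 of the 11 negative and 3 positive. At an unadjusted p below 0.05, limma put 6 of the 11 past the threshold, against 13.2% of all genes. Ciita (-1.04, SE 0.32), H2-Eb1 (-0.38, SE 0.12), H2-Ab1 (-0.25, SE 0.11) and Flt3 (-0.37, SE 0.16) did not pass after adjustment. Like Fscn1, they were lower on every transgenic array than on any wild-type array, as for 4.94% of all genes. Of 9 measured macrophage markers, Adgre1 and Csf1r rose (log2 differences 1.29, SE 0.19, and 1.16, SE 0.19) and 7 did not pass, with a median of 0.11. The difference was positive for 6 of the 9 and negative for 3: Vcam1 (-0.53, SE 0.27), C1qa (-0.17, SE 0.10) and Fcgr1 (-0.03, SE 0.13). The mean level of the 9 markers was 6.55 to 6.94 on transgenic and 6.33 to 6.57 on wild-type arrays. The part of such cells in the levels of the lineage factors was not tested. With 1 array left out, Cd4, Tnfsf9, Kit and Adgre1 passed in 8 of 8 fits, Csf1r in 5 and Fscn1 in 3.

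**Figure D5:**
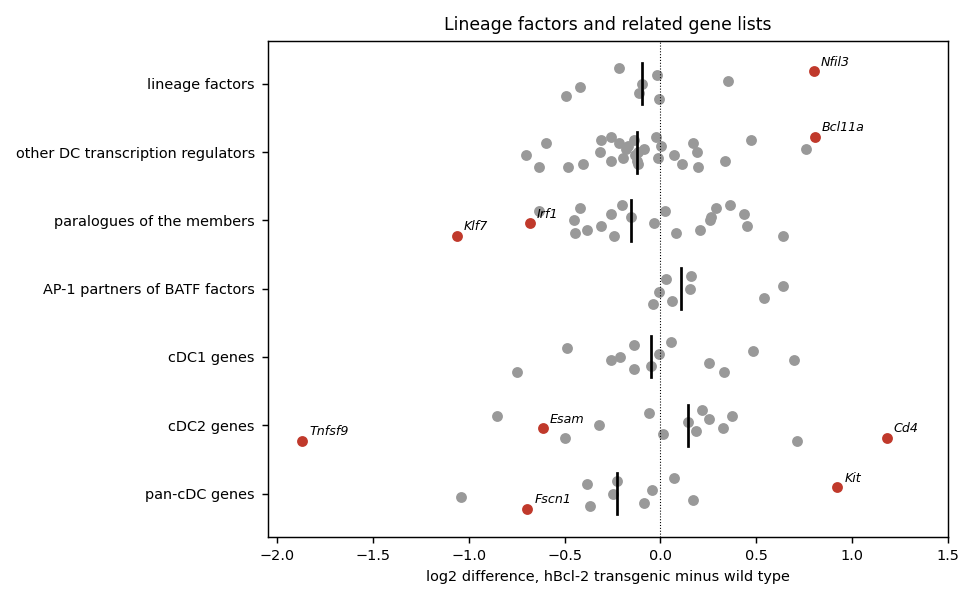
Log2 difference between transgenic and wild-type arrays (horizontal axis) of the 9 lineage factors and of the measured genes of 6 related lists; each point is 1 gene, red and named where limma's adjusted p is below 0.05, and black bars are medians. List medians lie between -0.23 and 0.14, and the genes past the threshold lie on both sides of 0.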

How the data were processed

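Values as deposited by the authors are on a log2 scale, 1 per probe set; per the submitters' processing notes they come from RMA and Partek, with no versions named; 2.5 ng of RNA was amplified per the labels' protocols. RMA makes array distributions alike, so a shift of all genes would not be seen. The sources used here do not state filters, the order of steps or the genome build of the array.

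Of 34390 probe sets, 23521 name 1 gene, 1814 several and 9055 none; the platform annotation's symbols were kept. Groups came from the labels. Transgenic minus wild type was fitted in R 4.3.3 with limma 3.58.1 (lmFit, eBayes) over 22180 genes, with no filter on signal. Errors are the SD over arrays or the moderated SE, and intervals are 95% intervals of that fit. Each factor also had an exact two-sided permutation test, unadjusted. The fit was also tested on simulated data.

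The factors, the 12 gene lists and the motifs were chosen with earlier results of these data known. The text names every factor, each list's genes past the threshold and up to 2 with the highest and lowest moderated statistic; other genes (such as Xcr1, Eomes, Gzma, Nkg7, Klrb1c and Itgam) are defining markers or were chosen after their values were seen. For each factor with an unadjusted p below 0.05, the 3 genes of highest correlation are named. Arrays have no read depth; the number of arrays limits precision. Promoter windows are RefSeq's. Alternatives were other variance moderation, filters on dim genes, renormalization, other probe set rules, weighted arrays, a block for the replicate number, stricter and looser thresholds, and omission of arrays; the fit without transgenic replicates 2 and 4 was added after seeing the data. Plots were made in Python 3.11.15 with matplotlib 3.10.9.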

Additional observations from a re-analysis of the deposited data

Results flagged for a closer look

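Spi1 on wild-type replicate 1 lay at 10.11, apart from the other wild-type arrays at 10.03 to 10.04, a gap of under 0.1 on the log2 scale that left its difference between genotypes near 0. Among the list genes, 6 arrays lay as far from the rest of their group relative to its range: Fosb on transgenic replicate 4 at 9.51 (others 10.15 to 10.20), Itgax on the same array at 8.80 (9.32 to 9.42), Gata3 on transgenic replicate 2 at 6.40 (5.69 to 5.76), F13a1 on wild-type replicate 2 at 3.81 (4.15 to 4.19), Csf1r on wild-type replicate 4 at 6.76 (6.04 to 6.13) and Ms4a1 on wild-type replicate 1 at 6.16 (5.56 to 5.62). These are 7 of 114 groups checked (6.14%), and chance gives about 1 in 20.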

How the results depend on the processing

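The 4 arrays of a group limit these results, and Tbx21 is also near the dim end. Nfil3 kept its direction in 20 of 20 alternative fits (log2 difference 0.67 to 0.89) and passed in 13. The count of factors past the threshold, 1 higher as reported, was 0 without variance moderation (adjusted p = 0.0965 for Nfil3), with the replicate number as a block (0.0632), at a threshold of 0.01 and without transgenic replicates 2 and 4 (0.0988). With 1 array left out that count ran from 0 to 1. The cause was not tested. The count of lower factors was 0 in every fit run. Irf8 was negative in 20 of 20 fits (-0.59 to -0.38; lowest adjusted p = 0.0963), as was Zbtb46 (-0.56 to -0.14; lowest adjusted p = 0.0983), and neither passed in any; Klf4 was positive in 20 of 20 (0.15 to 0.77) and Irf4 changed sign in 3 of 20 fits. Over all gene lists 9 genes rose and 5 fell; the rising count was 0 without moderation, 5 without transgenic replicates 2 and 4, and 5 to 10 with 1 array left out, and the falling count was 1 without moderation, 2 with the replicate block, 1 without transgenic replicates 2 and 4, and 1 to 4 with 1 array left out. Over all genes 374 passed, against 35 without moderation, 187 with the replicate block, 106 to 379 with 1 array left out, 747 at a threshold of 0.10 and 57 at 0.01. Same-numbered arrays did not deviate together (correlations of -0.03, -0.03, 0.08 and -0.02), so the numbers were not taken as pairs, and 1 of 4 transgenic arrays correlated best with its own number.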

Other observations

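Single genes of cDC1 and plasmacytoid DC varied between pools of the same genotype. Tlr3 gave 5.20, 6.65, 3.99 and 3.99 on transgenic replicates 1 to 4, against 4.50, 5.50, 5.86 and 5.92 on wild-type replicates 1 to 4, and Wdfy4, a gene of cross-presentation, gave 7.55, 8.36, 6.78 and 6.23, against 7.11, 7.06, 7.74 and 7.84. Siglech, a receptor of plasmacytoid DC, gave 6.29, 7.52, 5.67 and 5.86 on transgenic replicates 1 to 4, against 5.18, 5.85, 6.07 and 5.53 on wild-type replicates 1 to 4. None of these 3 genes, which were chosen after their values were seen, passed the test (limma adjusted p = 0.790, 0.894 and 0.477).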
